A study of Mus musculus with 6 samples.

Results

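The genes described here are 10 genes of the red blood cell lineage, *Klf1*, *Gata1*, *Tal1*, *Gfi1b*, *Epor*, *Alas2*, *Aqp1*, *Car1*, *Ank1* and *Add2*, in RNA-Seq of mouse Naive CD4+ T cells (Naive) and of the Th17 and Th1 cells made from them. They were chosen by their counts in these libraries, which stood higher in Naive than in Th17 or Th1 and higher in Naive replicate 1 than in replicate 2, so that both patterns are given as a description without a test. All 10 were found among the 24223 genes counted, and all 10 passed the filter on low counts that left 13607 genes. Levels are given as CPM, the counts of a gene for every 1000000 counts of its library.

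The study had 6 libraries, 2 of each cell type, which the methods call biological replicates. Naive cells came from pooled lymph nodes and spleens of C57BL/6 mice aged 1 to 2 months and were taken with a magnetic kit for CD4+CD62L+ cells as CD4+CD44- cells. Their purity was measured by flow cytometry, and the reporting summary gives a lower value than the methods. Th1 cells were Naive cells cultured for 5 days with anti-CD3 and anti-CD28, anti-IL-4, IL-12 and IL-2. Th17 cells were also activated through CD3 and CD28 for the same time, with anti-IL-4, anti-IFN-γ, TGF-β, IL-6, IL-1β and IL-23. For the activation the methods name bound anti-CD3 with soluble anti-CD28, or beads, and do not say which served which cells. The totals ranged from 17742158 to 69080017 counts, and replicate 1 had between 3.38 and 3.77 times the total of replicate 2 in each cell type. A gene with 3 counts, the limit of detection used here, stood at 0.0434 CPM in the deepest library and at 0.169 CPM in the shallowest. In a whole preparation of cells, fewer cells of a type and less RNA in each of them cannot be told apart.

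Red blood cells are made in bone marrow and, in mice, also in the spleen. In erythroid progenitors the factors *Gata1*, *Tal1*, *Klf1* and *Gfi1b* act on a shared set of target genes, and erythropoietin, read by its receptor *Epor*, keeps the cells alive. The target genes supply haem (*Alas2*), the water channel of the red cell membrane (*Aqp1*), carbonic anhydrase (*Car1*) and the membrane skeleton (*Ank1*, which encodes ankyrin, and *Add2*, which encodes beta-adducin). Naive T cells are not known for this program.

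RefSeq windows from 250 bases before to 50 bases after the start of transcription were at hand for 8 of the 10 genes, with 9 windows in all, and none for *Ank1* and *Car1*. The windows were searched on both strands for the GATA motif, spelled AGATAA or TGATAA and also accepted with G as its last letter, and for CCNCNCCC, a short form of the motif that Klf1 and related factors bind. The GATA motif was found in 6 of 9 windows (66.7%), against 29.8% of the 32851 windows of all genes, and CCNCNCCC in 7 of 9 (77.8%) against 49.5%. Among 90 windows of the other erythroid genes described below, 33.3% held the GATA motif and 71.1% held CCNCNCCC. The windows of *Aqp1* and *Gata1* and the downstream window of *Tal1* held no GATA motif in these letters. A match is a stretch of letters and not evidence of binding. The 4 windows below are shown because their GATA match, in capitals, lies nearest to the start of transcription, at 80 bases before it in *Klf1*, 54 in *Epor*, 86 in *Alas2* and 120 in *Gfi1b*. They are given 5′ to 3′ on the strand of the gene, from GRCm38.p6, at chr8:84901732-84902031 (+) for *Klf1*, chr9:21963527-21963826 (-) for *Epor*, chrX:150547167-150547466 (+) for *Alas2* and chr2:28621933-28622232 (-) for *Gfi1b*.
Klf1: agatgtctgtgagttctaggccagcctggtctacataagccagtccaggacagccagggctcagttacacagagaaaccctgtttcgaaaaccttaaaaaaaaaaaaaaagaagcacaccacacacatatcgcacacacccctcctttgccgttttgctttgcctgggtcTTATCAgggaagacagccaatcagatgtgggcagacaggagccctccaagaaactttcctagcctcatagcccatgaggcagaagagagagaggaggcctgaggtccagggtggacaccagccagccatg
Epor: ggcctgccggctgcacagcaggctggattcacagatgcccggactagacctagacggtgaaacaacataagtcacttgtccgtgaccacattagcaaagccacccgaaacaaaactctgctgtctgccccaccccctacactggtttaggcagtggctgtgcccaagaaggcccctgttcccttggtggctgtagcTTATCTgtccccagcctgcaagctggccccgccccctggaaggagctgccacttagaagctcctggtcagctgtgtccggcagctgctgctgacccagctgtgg
Alas2: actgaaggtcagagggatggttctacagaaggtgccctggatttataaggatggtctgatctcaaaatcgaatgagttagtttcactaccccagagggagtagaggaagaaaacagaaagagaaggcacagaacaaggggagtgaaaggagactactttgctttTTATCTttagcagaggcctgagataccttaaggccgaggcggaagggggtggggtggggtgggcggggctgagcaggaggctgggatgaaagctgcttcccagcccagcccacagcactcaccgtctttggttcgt
Gfi1b: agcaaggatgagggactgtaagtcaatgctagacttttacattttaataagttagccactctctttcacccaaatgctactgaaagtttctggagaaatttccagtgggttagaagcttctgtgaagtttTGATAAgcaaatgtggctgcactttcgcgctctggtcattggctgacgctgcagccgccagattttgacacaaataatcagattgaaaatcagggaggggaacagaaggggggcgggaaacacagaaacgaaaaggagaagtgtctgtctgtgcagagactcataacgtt

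Together the 10 genes held 1335 and 217.9 CPM in Naive replicates 1 and 2. In Th17 the sum was 26.7 and 29.1 CPM, and in Th1 it was 56.6 and 83.3 CPM. *Gata1* alone made up 90.6% and 93.8% of the sum in the Th1 libraries. Without *Gata1*, the sum was 1235 and 195 CPM in the Naive libraries, 14.9 and 17.1 CPM in the Th17 libraries, and 5.31 and 5.18 CPM in the Th1 libraries. For 8 of the 10 genes both Naive libraries lay above each of the other 4 libraries, a pattern that 20.9% of all genes tested shared. The exceptions were *Gata1* and *Alas2*. These levels chose the genes, so that nothing is read from this count.

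**Figure D1:**
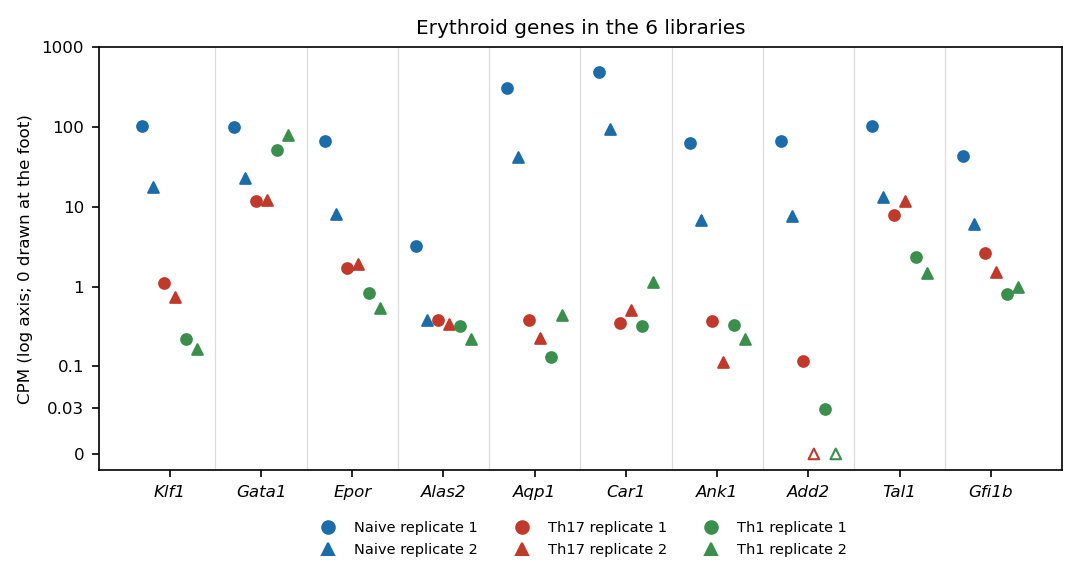
CPM of the 10 genes in each library, on a log axis, with circles for replicate 1, triangles for replicate 2 and colours for the cell type. Open symbols at the foot stand for 0 counts, which *Add2* had in Th17 replicate 2 and Th1 replicate 2. The Naive symbols stand highest for each gene except *Gata1*, whose Th1 libraries had 51.3 and 78.2 CPM, and *Alas2*, whose Naive replicate 2 lay at the level of Th17 and Th1.

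*Klf1*, a zinc finger factor that switches on adult globin and other red cell genes, lies on chromosome 8 of GRCm38 from 84901928 to 84905291. It had 102.5 and 17.6 CPM in the Naive libraries, 1.12 and 0.733 CPM in the Th17 libraries, and 0.217 and 0.164 CPM in the Th1 libraries. Its groups did not overlap, and the Naive mean of 60.0 CPM compared with means of 0.925 CPM for Th17 and 0.19 CPM for Th1. *Gfi1b*, a repressor of the erythroid and megakaryocyte lineages, lies on chromosome 2 from 28609450 to 28621982. Its CPM was 42.8 and 6.07 in Naive. It had 2.6 and 1.52 CPM in the Th17 libraries and 0.811 and 0.981 CPM in the Th1 libraries, so that the groups stood apart here too, with a smaller distance between Naive replicate 2 and Th17 (2.33 times the highest Th17 library).

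*Tal1*, a basic helix-loop-helix factor of blood stem cells and red cells, lies on chromosome 4 from 115056426 to 115071755. It had 103.2 and 13.1 CPM in the Naive libraries, 7.87 and 11.8 CPM in the Th17 libraries, and 2.33 and 1.47 CPM in the Th1 libraries. Naive replicate 2 exceeded the higher Th17 library by only 1.11 times, and the mean in Naive was 58.1 CPM (SD 63.8, n = 2). *Gata1*, the zinc finger factor that binds the GATA motif and is also made by megakaryocytes, mast cells and eosinophils, lies on chromosome X from 7959260 to 7978071. It had 99.4 and 22.9 CPM in the Naive libraries, 11.8 and 11.9 CPM in the Th17 libraries, and 51.3 and 78.2 CPM in the Th1 libraries. The Th1 libraries thus lay between the Naive libraries, and the Th17 libraries lay below all others. The Naive mean was 61.2 ± 54.1 CPM, the Th17 mean 11.9 ± 0.113 CPM and the Th1 mean 64.7 ± 19.0 CPM (SD, n = 2). The gap from Naive to Th1 was thus smaller than the spread between replicates.

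*Epor*, the receptor through which erythropoietin signals, lies on chromosome 9 from 21958897 to 21963506. It had 66.6 and 8.01 CPM in the Naive libraries, 1.68 and 1.92 CPM in the Th17 libraries, and 0.825 and 0.545 CPM in the Th1 libraries. Naive replicate 2 stood at 4.18 times the highest Th17 library and at 9.70 times the highest Th1 library. *Alas2*, the erythroid form of the enzyme that starts haem synthesis, lies on chromosome X from 150547375 to 150570638 and overlaps *Apex2* on the opposite strand. It was the weakest of the 10 genes in Naive, with 3.18 and 0.376 CPM, which are 206 and 7 counts. Th17 had 0.384 and 0.338 CPM and Th1 had 0.318 and 0.218 CPM. Naive replicate 2 therefore fell within the range of Th17, and only Naive replicate 1 was above it.

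*Car1*, carbonic anhydrase 1, lies on chromosome 3 from 14766216 to 14808368 and was the most abundant of the 10 genes in Naive. It had 486.4 and 93.1 CPM in the Naive libraries, 0.35 and 0.507 CPM in the Th17 libraries, and 0.318 and 1.14 CPM in the Th1 libraries. *Aqp1*, which lets water through the red cell membrane, lies on chromosome 6 from 55336432 to 55348555. It had 302.5 and 42.3 CPM in the Naive libraries, 0.384 and 0.225 CPM in the Th17 libraries, and 0.13 and 0.436 CPM in the Th1 libraries. For both genes Naive replicate 2, the lower Naive library, was at least 81.4 times the highest of the other 4 libraries.

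*Ank1*, which ties the spectrin skeleton to the membrane, lies on chromosome 8 from 22974844 to 23150497. It had 61.9 and 6.72 CPM in the Naive libraries, 0.367 and 0.113 CPM in the Th17 libraries, and 0.333 and 0.218 CPM in the Th1 libraries. *Add2*, an adducin subunit that caps and links the skeleton, lies on chromosome 6 from 86028681 to 86124409. Its Naive libraries had 66.1 and 7.74 CPM. In Th17 it had 7 and 0 counts and in Th1 it had 2 and 0 counts, at or under 0.117 CPM in each library. The 144 counts of Naive replicate 2 stood at 338 times the pooled Th1 libraries, with an exact binomial 95% counting interval from 92.0 to 2820. Sequenced reads are not independent molecules, so this and the other intervals cover counting error only. *Ank1* and *Add2* overlap antisense transcripts and *Car1* a pseudogene, and the sources differ on the strand setting used in counting. Smart-seq2 does not mark strand, but both settings count by strand. Whether reads of a gene and of its antisense partner were told apart is thus not known.

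Divided by the length of all exons in GENCODE, *Car1* led in Naive with 389.8 and 74.6 CPM per kb, followed by *Aqp1* with 115.2 and 16.1 CPM per kb and *Klf1* with 67.0 and 11.5 CPM per kb. *Alas2* was lowest in both Naive libraries, with 1.32 and 0.157 CPM per kb, next to *Ank1* with 4.57 and 0.497 CPM per kb. Exon length sums all annotated transcripts, which for *Ank1* is 13527 bases, so that the level per length depends on the annotation. In Th1 the highest level per length was that of *Gata1*, with 21.0 and 32.1 CPM per kb, and the other 9 genes stood at 0.917 CPM per kb or less.

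Each of the 10 genes was higher in Naive replicate 1 than in replicate 2. The ratio of CPM ranged from 4.33 for *Gata1* to 9.21 for *Ank1*, with a median of 7.53, while the median ratio of 13208 genes tested with counts in both libraries was 0.977. All 10 ratios were 4 or more, against 5.71% of all genes tested and 3% of the 13208 with counts in both, a background from which nothing is read because the ratio was part of the choice. With 1 library on each side, the ratio compares these libraries. Counting error was small beside it: the 95% intervals were 3.93 to 4.79 for *Gata1*, 4.98 to 5.49 for *Car1* and 7.71 to 11.1 for *Ank1*, and only *Alas2*, with 7 counts in replicate 2, had a wide interval from 4.03 to 21.3. Of the sum of the 10 genes, *Car1* made up 36.5% and 42.7%, *Aqp1* 22.7% and 19.4%, and *Gata1* 7.45% and 10.5% in replicates 1 and 2.

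**Figure D2:**
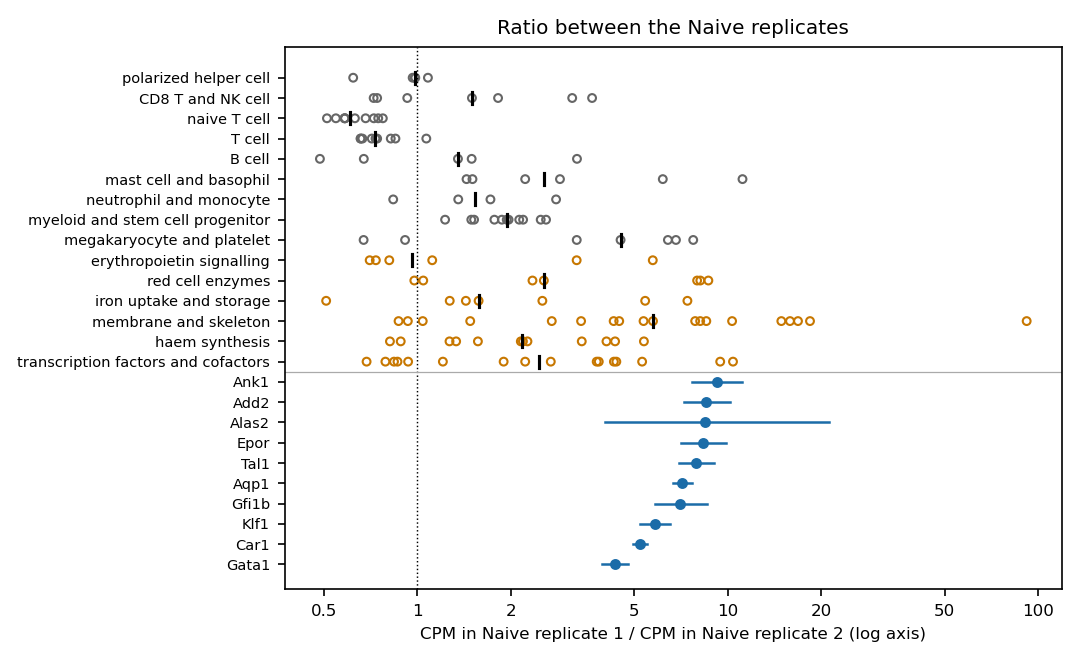
Ratio of CPM in Naive replicate 1 to CPM in replicate 2, on a log axis. Filled points with bars are the 10 genes with their 95% counting intervals, open circles are genes of other lists with more than 3 counts in both libraries (orange for erythroid roles, grey for other cell types), and black ticks are medians. The 10 genes lie between 4.33 and 9.21, and the naive T cell genes lie between 0.512 and 0.775.

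In Th17 and Th1 most of the 10 genes were low, and *Gata1* and *Tal1* were the main exceptions. *Gata1* had 11.8 and 11.9 CPM in the Th17 libraries from 707 and 212 counts. *Tal1* had 472 and 209 counts in Th17, and of the sum of the 10 genes there *Gata1* made up 44.2% and 41.1% and *Tal1* 29.5% and 40.5%. *Klf1*, *Epor* and *Gfi1b* had between 13 and 156 counts in each Th17 library. The make-up in Th17 and Th1 therefore differed from that in Naive, where *Car1* and *Aqp1* led.

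Other erythroid genes were read from a hand-written list of 80 genes without the 10, of which 79 were found and 65 passed the filter on low counts. They were tested with edgeR's quasi-likelihood F-test across all 13607 genes, with adjusted p-values by Benjamini-Hochberg, and called at an adjusted p under 0.01 and a log2 fold change beyond 1. In Th17 compared with Naive, 12 of the 65 were called lower, against 1.43% of all genes tested, and 1 was called higher, against 4.01%. In Th1 compared with Naive, 20 were called lower, against 2.81%, and 1 higher, against 4.64%. Of the 12 genes, 10 were also among the 20, and both comparisons share the Naive libraries. The filter asked for enough counts in any 2 libraries, so some of the 65 genes passed through Naive alone and could only be called lower. Among the genes called in both comparisons, *Ermap*, *Kel*, *Pklr*, *Rhag* and *Tspan8* were of this kind. The direction of the calls was thus partly fixed by the filter. Against Naive, the median log2 fold change of the 65 genes was -0.66 for Th17 and -1.16 for Th1, and that of all genes tested was -0.02 for both. Only *Slc4a1* in Th17 and *Cldn13* and *Tspan8* in Th1 had 0 counts in both libraries of the cell type. They lay far below the medians, so setting them at the limit of detection could not move the medians. Between Th1 and Th17, 1 gene was lower in Th1 (*Nfe2*) and 1 higher (*Zfpm1*), against 2.83% and 2.7% of all genes tested.

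The number of calls moved with the libraries in the fit. Without Naive replicate 1, 5 of 63 list genes tested were called lower in Th17 and 11 in Th1, beside 110 and 186 of all genes. Without Naive replicate 2, the counts were 29 and 34 of 68, beside 251 and 477 of all genes. Leaving out Th17 replicate 1 or 2 gave 2 and 5 of 68 for Th17, beside 28 and 46 of all genes. Leaving out Th1 replicate 1 or 2 gave 10 of 68 for Th1 each time, beside 115 and 186 of all genes. With all libraries, 194 and 383 of all genes were called lower. The 5 genes called in Th17 without Naive replicate 1 were *Car2*, *Ermap*, *Pklr*, *Rhag* and *Zfpm1*. *Ermap* and *Zfpm1* were called lower in Th17 with every library left out in turn, and *Bcl11a*, *Ermap*, *Kel*, *Lyl1*, *Pklr*, *Rhag* and *Tspan33* in Th1. With library size alone as the normalization, 7 genes were called lower in Th17, and DESeq2 called 21.

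Among 18 tested genes of the membrane and its skeleton, 5 fell in Th17 and 10 in Th1, against 1.43% and 2.81% of all genes tested. No gene of this group was called higher (0 also at an unadjusted p under 0.05 and by DESeq2). *Ermap*, an erythroid membrane protein of the immunoglobulin family, had 132.0 and 24.6 CPM in the Naive libraries, 0.167 and 0 CPM in the Th17 libraries, and 0.029 and 0 CPM in the Th1 libraries. Its log2 fold change in Th17 was -9.34 (standard error 1.03, edgeR adjusted p = 5.4e-04). *Rhag*, the Rh-associated glycoprotein, had 38.0 and 4.84 CPM in the Naive libraries and at most 0.169 CPM in each of the other 4 libraries, and *Rhd* had 47.2 and 4.57 CPM in the Naive libraries and at most 0.667 CPM elsewhere. *Kel*, which carries the Kell blood group, also fell in both comparisons, but was not called in Th17 without Naive replicate 1 or without Th17 replicate 1. *Tspan8* was called lower in both by edgeR, but not by DESeq2 (adjusted p = 0.061 in Th17 and 0.02 in Th1) nor without Naive replicate 1 (edgeR adjusted p = 0.051 and 0.035). *Add1*, *Epb4.1*, *Mpp1* and *Gypc*, the most abundant genes of this group, are also made outside the red cell lineage and were not called, with log2 fold changes in Th17 between -0.72 and 0.43. *Slc4a1*, the band 3 anion exchanger of late red cell precursors, had 29.6 and 0.322 CPM in Naive replicates 1 and 2, with 1 count in all of Th17 and Th1, and was not called (edgeR adjusted p = 0.017 in Th17 and 0.016 in Th1).

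Red cell enzymes and iron genes held further large differences. *Car2*, carbonic anhydrase 2, had 316.4 and 39.7 CPM in the Naive libraries, 5.77 and 8.74 CPM in the Th17 libraries, and 1.38 and 1.91 CPM in the Th1 libraries, with log2 fold changes of -4.60 and -6.57 compared with Naive. *Pklr*, the pyruvate kinase of red cells and liver, had 142.6 and 16.4 CPM in the Naive libraries and at most 0.113 CPM in each other library. *Car2* and *Pklr* were the only genes called among the 7 enzymes, while *Gpx1*, *Prdx2* and *Cat* were not. *Tfr2*, a transferrin receptor of erythroid and liver cells, and *Steap3*, an iron reductase of erythroid endosomes, fell in both comparisons, with log2 fold changes in Th17 of -5.79 and -4.04. *Hmox1*, which breaks down haem, was the gene called higher in Th17 (log2 fold change 3.04, standard error 0.53, edgeR adjusted p = 0.0052), a call lost without Naive replicate 1 (adjusted p = 0.026) and without Th17 replicate 2 (0.038). *Ftl1*, *Fth1*, *Tfrc* and *Slc11a2*, which other cells also use, were not called.

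Among 15 tested transcription factors and cofactors, 3 fell in Th17 and 6 in Th1, against 1.43% and 2.81% of all genes tested. *Zfpm1*, the cofactor of Gata1 also called FOG-1, had 243.4 and 201.2 CPM in the Naive libraries, 20.04 and 8.91 CPM in the Th17 libraries, and 52.2 and 97.3 CPM in the Th1 libraries. Its Naive replicates differed by 1.21 times, below the range of the 10 genes. It fell in Th17 (log2 fold change -3.92, standard error 0.45, edgeR adjusted p = 6.6e-04) and was not called in Th1 compared with Naive (-1.31, adjusted p = 0.056). *Bcl11a*, a repressor of fetal globin that B cells and other leukocytes also make, fell in both, and *Trim58* in Th17. *Trim58* had at most 0.261 CPM in each Th17 and Th1 library, so it passed the filter through Naive and could only be called lower. *Lmo2*, which bridges Tal1 and Gata1, had 116.9 and 22.0 CPM in the Naive libraries, 8.67 and 8.68 CPM in the Th17 libraries, and 3.19 and 1.80 CPM in the Th1 libraries, and fell in Th1 with *Lyl1*, *Nfe2*, *Myb* and *Cbfa2t3*. *E2f2* was called higher in Th1 (log2 fold change 2.08, edgeR adjusted p = 0.0025), a call lost without Naive replicate 1 (0.018) and without Th1 replicate 1 (0.011). *Ikzf1*, *Ldb1* and *Zbtb7a*, which are broadly made in lymphocytes, were not called.

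Of the 12 genes of haem synthesis beyond *Alas2*, all tested, edgeR called 0 in either comparison. At an unadjusted p under 0.05, 2 were lower and 1 higher in Th17, and 6 were lower in Th1, while DESeq2 called *Alad* lower and *Alas1* higher in Th17 and *Slc25a38* and *Uros* lower in Th1. In Naive, *Cpox* had 240.9 and 55.5 CPM and *Urod* 102.4 and 46.8 CPM, and in Th17 they had 64.5 and 51.7 CPM and 53.7 and 68.3 CPM. *Tmem14c*, a mitochondrial membrane protein of haem synthesis, had 142.4 and 66.0 CPM against 142.5 and 183.2 CPM. For *Cpox* only Naive replicate 1 stood above the other libraries. *Alas1*, the form of *Alas2* that other cells use, had 37.8 and 29.7 CPM in the Naive libraries and 66.8 and 115.9 CPM in the Th17 libraries. Of 6 genes of erythropoietin signalling, *Stat5b*, *Jak2*, *Stat5a* and *Cish* among them, edgeR also called 0. At an unadjusted p under 0.05, 1 was lower and 1 higher in each comparison, and DESeq2 called *Kit* lower in Th17 and *Cish* higher in both. At an unadjusted p under 0.05, 31 of the 65 genes of the whole list were lower in Th17 and 39 in Th1, where 16.1% and 14.3% of all genes tested were lower and 17.2% and 15.7% higher. The limit set by the filter on low counts holds for these counts too.

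**Figure D3:**
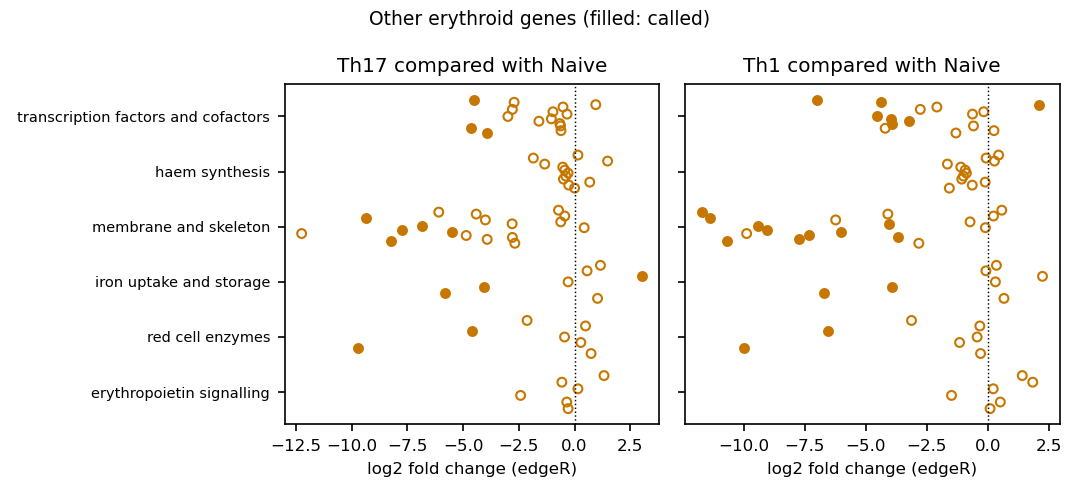
Log2 fold change by edgeR of each tested gene of the erythroid list, in rows by role, in Th17 (left) and Th1 (right) compared with Naive; filled points were called. Genes called lower lie mostly in the rows of membrane, factors, iron and enzymes, and no gene of haem synthesis or erythropoietin signalling was called.

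The globins, the main product of red cell precursors, gave almost no counts. Of 11 globin genes found, 9 had 0 counts in Naive replicate 1 and all 11 in Naive replicate 2. *Hbq1b* had 7 counts in Naive replicate 1 and *Hba-x* had 1, and *Hbb-y* and *Hbb-bh1* had at most 4 counts in a library. *Hbb-bt*, *Hbb-bs*, *Hba-a1* and *Hba-a2*, the adult globins, were listed at 0 in all 6 libraries, as were *Hbb-b1* and *Hbb-b2*. These genes have near-identical copies between which reads can be lost in counting. Such a loss was not tested, so a 0 here is uncertain as a measure of the transcript.

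The ratio between the Naive replicates was not the same for all erythroid genes. Of 67 list genes with more than 3 counts in both Naive libraries, 53 were higher in replicate 1 and 27 by 4 times or more, with a median of 2.69. The highest ratios were those of *Slc4a1*, at 91.9 (95% counting interval 42.2 to 251), *Dmtn*, at 18.4 (7.82 to 57.1), and *Cldn13*, at 16.9 (11.1 to 27.0). These encode proteins of the red cell membrane or its skeleton, and the intervals of *Slc4a1*, *Dmtn* and *Cldn13* lie above that of *Klf1* (5.22 to 6.54). *Kit*, the stem cell factor receptor of early progenitors, had a ratio of 3.26 (3.002 to 3.56), *Gata2* of 2.23 (1.97 to 2.53) and *Myb* of 1.90 (1.81 to 1.99). Other factors had higher ratios, such as *Lmo2* at 5.31 and *Sox6* at 10.4. Some genes of red cell enzymes and haem synthesis had lower ones, such as *Bpgm* at 0.979 and *Slc25a37* at 0.817. The genes named here were picked after their ratios were seen, and a link of the ratio to the stage of maturation was not tested. By role, the median ratio was 5.75 in the membrane group, 2.56 for enzymes, 2.46 for factors, 2.17 for haem synthesis, 1.58 for iron genes and 0.966 for erythropoietin signalling.

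Marker genes of T cells were present in every library. *Cd4* had 534.7 and 803.4 CPM in the Naive libraries, and the 9 T cell genes found summed to between 3777 and 4908 CPM in the 6 libraries. In Naive replicate 1 these sums were lower than in replicate 2, with 3777 against 4908 CPM for T cell genes and 4071 against 6620 CPM for naive T cell genes such as *Tcf7* and *Satb1*. All 10 naive T cell genes were lower in replicate 1. *Il17a* had 573.2 and 688.1 CPM in the Th17 libraries and at most 0.507 CPM in the other libraries, and *Il12rb2* had 316.4 and 242.2 CPM in the Th1 libraries and at most 12.1 CPM elsewhere. The 8 genes of polarized helper cells summed to 89.3 and 89.6 CPM in Naive, 1633 and 1932 CPM in Th17, and 730.5 and 658.6 CPM in Th1.

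Markers of other blood cells were read in the same libraries. Myeloid and stem cell progenitor genes, with *Mpo* at 263.5 and 172.8 CPM in the Naive libraries, were higher in Naive replicate 1 for 11 of 11 genes with enough counts, with ratios from 1.23 to 2.60. Their sum was 771.8 and 514.3 CPM in the Naive libraries, 887.1 and 990.5 CPM in the Th17 libraries, and 416.8 and 518.2 CPM in the Th1 libraries, of which *Srgn*, made in many blood cells, was the largest share. Without *Srgn* the sum was 504.6 and 297.1 CPM for Naive, 328.7 and 299.6 CPM for Th17, and 26.4 and 21.8 CPM for Th1. Of the 12 genes, 9 were called lower in Th1 than in Naive, against 2.81% of all genes tested, and the median log2 fold change was -3.33. In Th17 compared with Naive, 1 was called lower, against 1.43%, and the median was 0.33. In Th1 compared with Th17, 7 were called lower, against 2.83%. Megakaryocyte and platelet genes, of the lineage nearest to red cells, were in sum 177.6 and 218.9 CPM in the Naive libraries, but *Itgb3*, which T cells also make, held 140.9 and 209.8 CPM of these. *Pf4* had 3.93 and 0 CPM in the Naive libraries, 134.2 and 270.0 CPM in the Th17 libraries, and 21.5 and 7.9 CPM in the Th1 libraries, and 9 of 14 genes of that list were called higher in Th17 than in Naive, against 4.01% of all genes tested. *Gp6* was at 0 in both Naive libraries, and *Ppbp*, *Tubb1* and *Clec1b* had at most 0.139 CPM in each. These genes passed the filter through the other libraries and could only be called higher than in Naive. *Pf4*, *Gp9*, *Gp1bb* and *Treml1* had at most 0.215 CPM in Naive replicate 2, so they also needed a Th17 or Th1 library to pass. The direction of these calls was thus partly fixed by the filter, and nothing is read from their number. In Naive replicate 2, 5 genes besides *Gp6* were at 0. Mast cell and basophil genes summed to 81.7 and 28.4 CPM in the Naive libraries, 250.1 and 472.1 CPM in the Th17 libraries and 62.3 and 42.0 CPM in the Th1 libraries, with 3 of 10 at 0 in Naive replicate 2. Neutrophil and monocyte genes summed to 82.7 and 44.4 CPM in the Naive libraries, 3382 and 3587 CPM in the Th17 libraries and 140.3 and 146.2 CPM in the Th1 libraries, with 4 of 11 at 0 in Naive replicate 2, and *S100a8* had 1.02 and 0.161 CPM in Naive against 1252 and 1138 CPM in Th17. B cell genes were low, between 4.20 and 29.2 CPM in sum, with 4 of 10 at 0 in Naive replicate 2. CD8 T and NK cell genes, such as *Klrd1* and *Eomes*, summed to between 33.1 and 83.4 CPM. The part of other cells in the levels of the 10 genes was not tested.

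**Figure D4:**
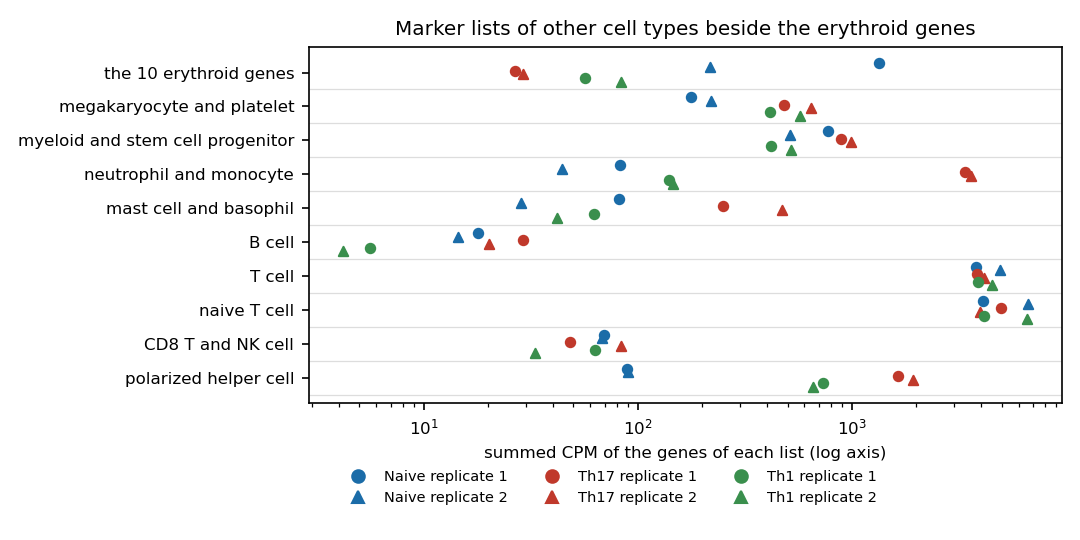
Summed CPM of the 10 erythroid genes and of 9 marker lists in each library, on a log axis. The sum of the erythroid genes is 1335 and 217.9 CPM in the Naive libraries and 83.3 CPM or less in Th17 and Th1, whereas the sums of the T cell genes stay between 3777 and 4908 CPM.

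The genes with the profile most like the 10 were sought among the other 13597 genes tested. The measure was the distance, over the 6 libraries, between the log2 CPM of a gene and the mean of the 10, each centred on its own mean. The nearest were *Bex4*, *Nkx1-2*, *Hnf4a*, *Pld6*, *Rhd*, *Sowaha*, *Grb10*, *Gm15915*, *AI427809* and *Sostdc1*, at distances between 0.65 and 1.22, against a median of 6.19 over all these genes. *Bex4* had 24.6 and 2.31 CPM in the Naive libraries and at most 0.267 CPM elsewhere. *Gm15915* was the most abundant, with 98.3 and 17.9 CPM in the Naive libraries and at most 0.917 CPM elsewhere, and *Grb10*, an adaptor of growth factor receptors, had 32.0 and 6.83 CPM in the Naive libraries. *Rhd* was the only gene of the erythroid list among these 10, and 14 genes of that list were among the nearest 100, where the list held 65 of the 13597 genes. The profile is the pattern that chose the 10 genes, and the list was written with earlier results of these data known. The 10 erythroid genes themselves lay between 1.44 (*Epor*) and 5.83 (*Gata1*) from their mean, so that *Gata1* was the least typical of them.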

How the data were processed

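RNA-Seq counts of 6 mouse libraries (2 per cell type) were used as deposited. Polyadenylated RNA had been reverse transcribed by Smart-seq2. According to the methods and the submitters' processing notes, the authors mapped reads to mm10 with HISAT2 2.2.1, removed duplicates and produced raw counts per gene with HTSeq 0.13.5. The methods name default parameters, which count by strand, and the supplementary code gives the reverse setting and no duplicate step. CPM used the raw library total. Counts were tested in R 4.3.3 with edgeR 4.0.16, after filterByExpr and TMM scaling (factors 0.862 to 1.09), with cell type as the only term and all 6 libraries fitted together. Standard errors beside edgeR values were worked back from the test, as the size of the log2 fold change divided by the square root of F. They are approximate. DESeq2 1.42.0 was an alternative. The smallest p an exact permutation test of 2 against 2 libraries allows is 0.333. Gene models came from GENCODE vM21 (GRCm38), promoters from RefSeq.

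The 10 genes and the lists were chosen with earlier results of these data known. Named are the 10 genes, the 4 most abundant genes of each erythroid role, the 3 most abundant of each other list and the 10 nearest profiles (prior count 2). Other list genes were named after their values were seen. Some list genes are not reported here by name.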

Additional observations from a re-analysis of the deposited data

How the results depend on the processing

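Of the 10 erythroid genes, 8 had both Naive libraries above the other cell types, a pattern that chose them, and the number was 8 with TMM-scaled library sizes and after thinning to the smallest library, and between 8 and 10 with each library left out in turn. Their median Naive level of 47.7 CPM was 45.3 and 48.3 CPM under those settings, and 10.5 and 83.0 CPM without Naive replicate 1 and replicate 2. The median ratio between the Naive replicates was 7.53, 7.82 with TMM-scaled sizes and 9.78 with the counts of T cell genes as the denominator. Of the 10 genes with the nearest profile, 5 stayed among the nearest 10 with a prior count of 0.5 and 6 with Pearson correlation as the measure.

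Calls of the erythroid list depended on the setting, and the cause was not tested. In Th17 compared with Naive, the 12 genes lower were 21 with DESeq2, 7 with library size alone, 31 without the filter on low counts, 25 at an adjusted p under 0.05, and 2 to 29 with a library left out. The 1 gene higher was 4 with DESeq2, 4 without the filter, 4 at 0.05, and 0 to 1 with a library left out. In Th1 compared with Naive, the 20 genes lower were 37 without the filter and 10 to 34 with a library left out. The 1 gene higher was 3 with DESeq2, 3 without the filter, 3 at 0.05, 0 with library size alone, and 0 to 2 with a library left out. In Th1 compared with Th17, the 1 gene lower was 4 with DESeq2, 2 with RLE size factors, 0 with library size alone, 13 without the filter, 7 at 0.05, 3 after thinning, and 0 to 4 with a library left out. The 1 gene higher was 4 with DESeq2, 0 with library size alone, 5 without the filter, 4 at 0.05, and 0 to 2 with a library left out. Of the 12 and 20 genes lower, DESeq2 also called 11 and 19.

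Where a library was left out, the lone library of that cell type was assumed to vary like the others. The replicate numbers are shared by the cell types, but no label ties same-numbered libraries to the same animals, and the differences between replicates had correlations of -0.231, 0.168 and 0.0766 between cell types across genes, so they were not treated as pairs. With the replicate block, 21 genes were lower than Naive in Th17 and 25 in Th1, 3 were higher in Th1, and 4 were lower in Th1 than in Th17. Over all genes, the genes lower in Th17 than in Naive were 194 as reported, 123 with library size alone, 669 with DESeq2 and 951 without the filter, and those lower in Th1 than in Naive were 383, 363, 820 and 972.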
